A study of Homo sapiens with 2 samples.

Results

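Interferon signalling and interferon-stimulated genes were examined in 2 stable Panc1 populations. The set holds 46 genes chosen by name: the type I interferon receptor with its kinases, transcription factors of the pathway, and genes that interferon is known to induce. The IFIT and IFITM families are not among them. A probe set, the group of short probes that reads 1 transcript on an Affymetrix array, belonged to a member when the platform annotation gave it that 1 gene symbol and no other. By this rule 45 members had 97 probe sets, out of 19775 genes named in the same way, and the signal of STAT2 was not analysed here.

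Panc1 is an established line from a human pancreatic ductal adenocarcinoma. Panc1/syk-wt cells stably carry introduced wild-type SYK, which encodes a cytoplasmic tyrosine kinase, and Panc1/mock cells carry the vector alone. Both were held under hygromycin selection, kept subconfluent and harvested without further treatment, so neither received interferon according to the labels. Each population had 1 array, so every value is a single measurement, no p-value is given, and population, RNA preparation and array cannot be told apart.

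Type I interferon binds the receptor chains IFNAR1 and IFNAR2, and the attached kinases TYK2 and JAK1 phosphorylate STAT proteins. The STATs join IRF9 in a complex that binds the interferon-stimulated response element (ISRE) in promoters of antiviral genes. The induced proteins sense viral RNA, block viral replication, or modify other proteins with ISG15, a ubiquitin-like modifier, and several of them feed back on the pathway itself.

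The promoters below show what the ISRE core looks like ahead of members whose signal differed between the arrays, and beside them a pair of transcription factor genes that hold another element. They are 60-base stretches read 5′ to 3′ on the gene's own strand from RefSeq (GRCh38.p14), and the gene start is counted as +1, with the base before it as -1. Capitals mark the repeat at the core of the ISRE, GAAA, NN and GAAA in a row, on either strand.
ISG15: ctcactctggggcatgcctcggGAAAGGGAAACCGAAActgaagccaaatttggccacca
BST2: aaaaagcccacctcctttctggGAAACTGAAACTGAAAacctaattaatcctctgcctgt
LGALS3BP: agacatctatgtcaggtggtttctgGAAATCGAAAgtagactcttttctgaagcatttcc
IFIH1: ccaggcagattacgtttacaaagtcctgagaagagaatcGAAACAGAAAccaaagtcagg
PARP9: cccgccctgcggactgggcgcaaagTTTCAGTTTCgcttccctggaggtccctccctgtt
ISG20: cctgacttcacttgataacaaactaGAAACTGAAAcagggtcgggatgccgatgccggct

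The ISG15 stretch is chr1:1013362-1013421 (plus strand, -135 to -76), and its 2 matches overlap by 4 bases. The BST2 stretch, with 2 overlapping matches as well, is chr19:17405723-17405782 (minus strand, -152 to -93). LGALS3BP is shown at chr17:78979947-78980006 (minus strand, -83 to -24) and IFIH1 at chr2:162318685-162318744 (minus strand, -60 to -1). PARP9 is shown at chr3:122564307-122564366 (minus strand, -66 to -7) and carries the repeat on the opposite strand. ISG20, the member that was higher in syk-wt, is shown at chr15:88638922-88638981 (plus strand, -94 to -35).

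In the genes for IRF9 and IRF1, transcription factors of the pathway, no such repeat lay in the window. Both held TTCNNNGAA, the palindromic core of the gamma-activated site (GAS) that STAT dimers bind, marked here in capitals. The BST2 stretch above also holds it, from -136, where it is not marked as such.
IRF9: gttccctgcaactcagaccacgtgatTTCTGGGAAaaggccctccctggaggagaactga
IRF1: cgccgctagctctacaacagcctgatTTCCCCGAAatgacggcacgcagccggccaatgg

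The IRF9 stretch is chr14:24161176-24161235 (plus strand, -89 to -30) and the IRF1 stretch is chr5:132490864-132490923 (minus strand, -150 to -91).

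Signal is given as RMA values, which are log2 intensities, and a difference is always syk-wt minus mock on that scale. Each gene is represented by its brightest probe set (by the mean of syk-wt and mock), and it was counted when that mean reached 4.25, the median of all probe sets. A difference of 1 or more in size, 2-fold, is the only call used. The highest of 27 probe sets for bacterial transcripts read 4.77, and values at or below it are called dim: where 1 value is dim, the fold is given as at least the brighter value over 4.77, and where both are dim no fold is given. The next highest of the 27 bacterial probe sets read 3.61, so 1 control set the dim level. Several values called dim below lie above 3.61, and counts and folds with that lower level were not computed. Signal of different probe sets is not comparable as transcript level.

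The arrays had medians of 4.24 (syk-wt) and 4.26 (mock), and 18 spiked hybridisation controls differed by a median of 0.01. The 3′ minus 5′ difference of the ACTB control probe sets was 2.37 on the syk-wt array and 1.95 on the mock array, and its part in the differences below was not tested. SYK itself was dim on both arrays (4.73 in syk-wt and 4.27 in mock), so its signal could not check the array labels, on which every direction given here depends. Keratins and EPCAM, markers of carcinoma epithelium, were above 4.77 on both arrays in 5 of 5 genes. Of these KRT19 was 2.72-fold lower in syk-wt (9.44 in syk-wt and 10.88 in mock), and the other 4 lay between -0.76 (KRT8) and 0.30 (EPCAM), and their part in the differences below was not tested. The 14 measured markers of leukocytes, plasmacytoid dendritic cells, endothelium and fibroblasts were dim on both, with at most 4.70 in syk-wt and 4.70 in mock.

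Members of the set were mostly lower in syk-wt, by modest amounts. Of the 45 measured members 33 were counted, and 29 of these 33 lay below 0, against 47.8% of all 12814 counted genes. At least 2-fold lower were 10 members (30.3%), where the background over all counted genes was 3.65%. BST2 and OAS1 are among the 10 through their mock values, as their syk-wt values (4.10 and 3.79) lay under the 4.25 of the filter. With dim values set to 4.77 on both arrays, 9 members (27.3%) were at least 2-fold lower, beside 3.34% of all counted genes, and 28 of 33 lay below 0. ISG20 alone was at least 2-fold higher, with a background of 3.61% in that direction. The 11 calls of either direction compare with a background of 7.26%, and the remaining 22 members differed by less than 2-fold. Bulk RNA cannot tell fewer expressing cells from less RNA per cell. The median difference was -0.74 over the 33 members, beside 0.01 over all counted genes, and the interquartile range of the members ran from -1.12 to -0.32. A further 12 counted members lay between -0.5 and -1, and IFI27 among them was dim on both arrays. The share of all counted genes in this band was not computed, and the interquartile range of all counted genes ran from -0.28 to 0.33.

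**Figure D1:**
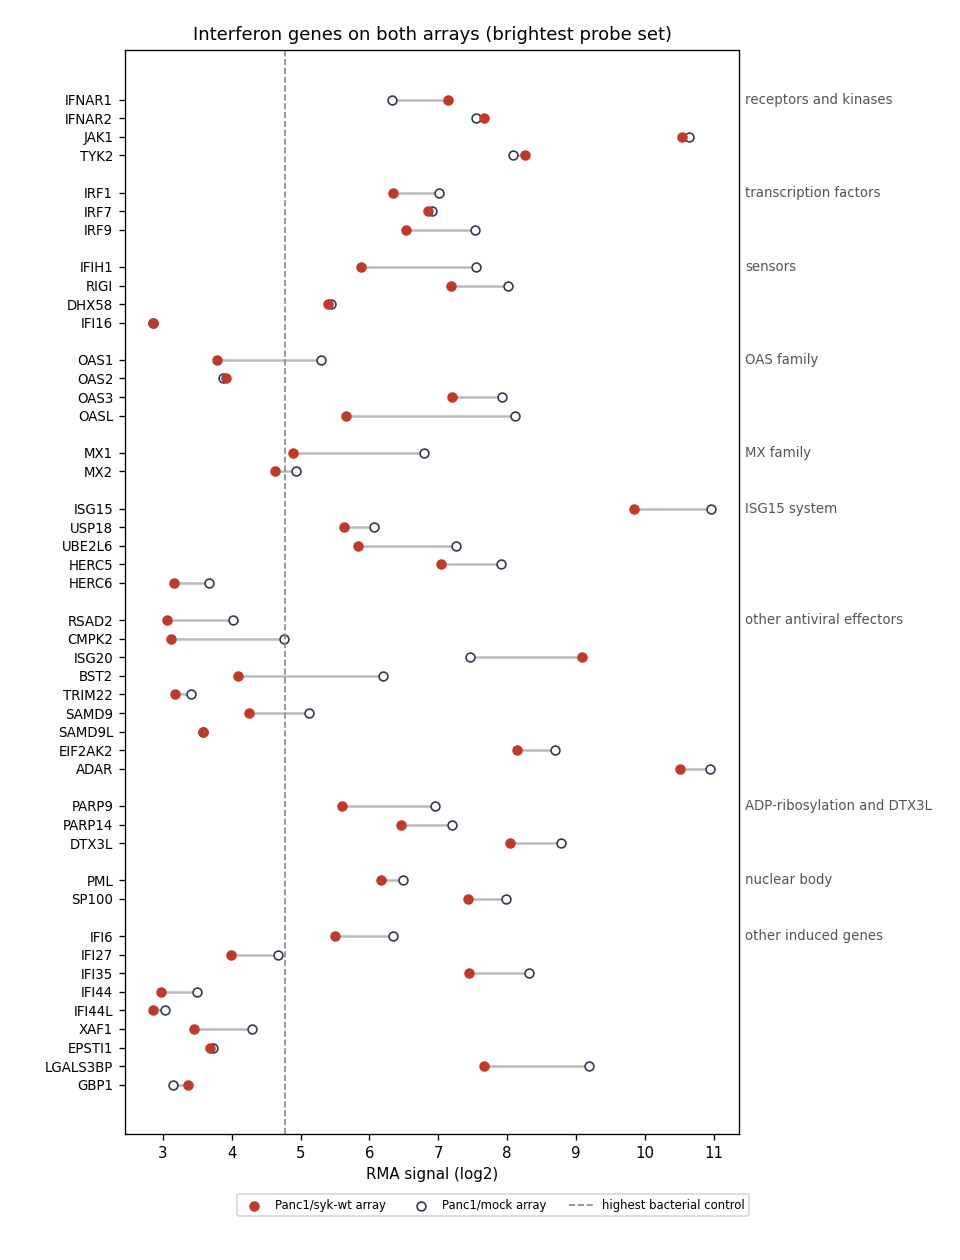
RMA signal (log2) of the 45 measured members on the syk-wt array (filled red) and the mock array (open), each by its brightest probe set, grouped by role. The dashed line marks 4.77, the highest bacterial control. Most grey bars run left of the mock point among effectors, while IFNAR1 and ISG20 run to the right.

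The receptor chains and kinases did not share the lower signal. IFNAR1 read 7.13 in syk-wt and 6.32 in mock, a difference of 0.81 by its brightest probe set. The next probe set of IFNAR1 read 7.29 in syk-wt and 6.14 in mock, 2.23-fold higher. The third differed by 1.18 on the log2 scale, with a dim mock value of 3.82, and was at least 1.18-fold higher. All 3 IFNAR1 probe sets past the filter pointed the same way, the fourth was dim on both arrays, and the choice of probe set decides whether the gene passes 2-fold.

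IFNAR2, the other receptor chain, read 7.66 in syk-wt and 7.55 in mock. JAK1, the kinase bound to IFNAR2, read 10.54 in syk-wt and 10.64 in mock. TYK2, the kinase bound to IFNAR1, read 8.26 in syk-wt and 8.08 in mock. Each of these differed by less than 0.2, and the IFNAR2 probe sets past the filter did not share a sign (-0.20 to 0.12). The pooled SD of the difference between probe sets of 1 gene, a guide to probe behaviour and not to variation between cultures, was 0.35 over 6028 genes, so these differences lay within it.

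Among the transcription factors, IRF9, the DNA-binding subunit of the STAT complex, read 6.53 in syk-wt and 7.54 in mock, 2.02-fold lower. IRF1, which activates an overlapping group of promoters, read 6.34 in syk-wt and 7.01 in mock. Its second probe set gave nearly the same difference (-0.66 against -0.67). IRF7, the regulator of interferon-alpha genes, read 6.85 in syk-wt and 6.91 in mock. The named factors were therefore lower, lower by less than 2-fold, and near 0.

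Taken as parts of the pathway, the 7 counted receptor and JAK-STAT members had a median difference of -0.06 and the 26 counted effectors one of -0.83. The medians lay 0.77 apart on the log2 scale. The 7 did not move together: the 4 receptor chains and kinases had a median of 0.15, whereas IRF1, IRF7 and IRF9 were all below 0 with a median of -0.67. Of the effectors, 25 of 26 were below 0 and 9 were at least 2-fold lower, whereas 4 of the 7 receptor and JAK-STAT members were below 0 and 1 was at least 2-fold lower. With 1 array per population this gap is a description of these arrays and has no error.

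**Figure D2:**
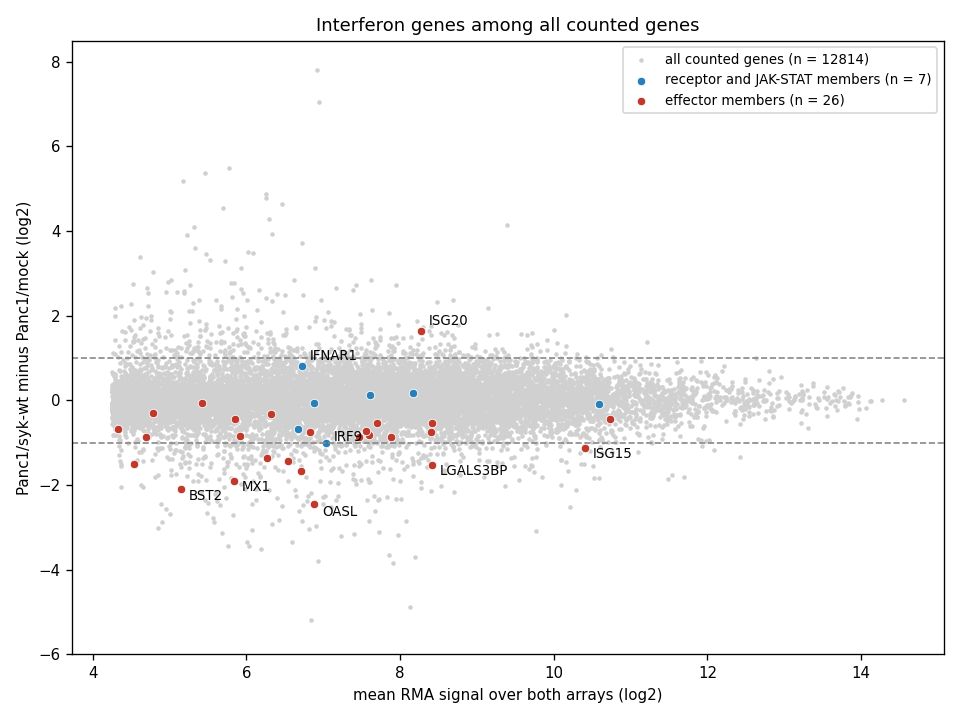
Difference syk-wt minus mock (log2) against the mean RMA signal over both arrays (log2) for all 12814 counted genes (grey), 7 receptor and JAK-STAT members (blue) and 26 effectors (red). Dashed lines mark 2-fold. The effectors lie below 0 at low, middle and high signal, with ISG20 as the exception, and the receptor and JAK-STAT members run from IRF9 at -1.01 to IFNAR1 at 0.81.

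The cytoplasmic RNA sensors differed in size. IFIH1 (MDA5), which recognises long double-stranded RNA, read 5.88 in syk-wt and 7.55 in mock, 3.19-fold lower. RIGI (RIG-I), which recognises RNA ends with a triphosphate, had 3 probe sets past the filter. The brightest RIGI probe set read 7.18 in syk-wt and 8.01 in mock, 1.77-fold lower. The other RIGI probe sets differed by -0.65 and -1.30, so the 3 agreed in sign and 1 of them passed 2-fold.

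DHX58 (LGP2), a sensor of the same family that lacks the signalling domains, read 5.39 in syk-wt and 5.45 in mock, the counted member nearest to 0. IFI16, a sensor of DNA, was dim in all 3 of its probe sets, with 2.85 in syk-wt and 2.85 in mock for the brightest.

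The OAS proteins make 2′-5′-linked oligoadenylates when they meet double-stranded RNA, and OASL is a relative without that activity. OASL had the most negative difference of the set and ranked 44 of 12814 from the lowest. Its brightest probe set read 5.67 in syk-wt and 8.11 in mock, 5.44-fold lower, and the other read 4.69 in syk-wt and 7.97 in mock, at least 9.24-fold lower. The OASL probe sets thus agreed on direction and differed in size.

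OAS1 read 3.79 in syk-wt and 5.29 in mock, a measured difference of -1.50 but only at least 1.44-fold lower, since the syk-wt value was dim. OAS3 read 7.19 in syk-wt and 7.92 in mock, 1.65-fold lower. OAS2 was dim in all 3 probe sets and was not counted. Of this family, OASL and OAS3 had a brightest probe set above 4.77 on both arrays, and both were lower in syk-wt.

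MX1, a dynamin-like GTPase that traps viral nucleocapsids, read 4.89 in syk-wt and 6.79 in mock, 3.73-fold lower. Its syk-wt value stood just above 4.77. MX2, the related nuclear-envelope GTPase, read 4.63 in syk-wt, a dim value, and 4.94 in mock, at least 1.13-fold lower.

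The ISG15 system was lower in all 4 counted members. ISG15 itself read 9.85 in syk-wt and 10.96 in mock, 2.17-fold lower at high signal on both arrays. UBE2L6 (UBCH8), the enzyme that carries activated ISG15, read 5.83 in syk-wt and 7.26 in mock, 2.69-fold lower. HERC5, the ligase that attaches ISG15 to proteins, read 7.04 in syk-wt and 7.90 in mock, 1.82-fold lower. USP18, which removes ISG15 and dampens receptor signalling, read 5.64 in syk-wt and 6.07 in mock, 1.35-fold lower. HERC6 was dim on both arrays.

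Other antiviral effectors went both ways. BST2 (tetherin), which holds budding virions at the cell surface, read 4.10 in syk-wt and 6.19 in mock, at least 2.69-fold lower. ISG20, an exonuclease for single-stranded RNA, read 9.08 in syk-wt and 7.45 in mock, 3.10-fold higher. Its second probe set read 8.98 in syk-wt and 7.28 in mock, 3.24-fold higher, so both ISG20 probe sets gave the direction opposite to the other called members.

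EIF2AK2 (PKR), the kinase that stops translation on double-stranded RNA, read 8.14 in syk-wt and 8.69 in mock, while its second probe set differed by -0.03. ADAR, which edits adenosine to inosine in double-stranded RNA, read 10.51 in syk-wt and 10.94 in mock. SAMD9, a restriction factor of poxviruses, read 4.25 in syk-wt, a dim value, and 5.13 in mock, at least 1.29-fold lower, and its second probe set gave -0.85. None of these 3 reached 2-fold.

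PARP9, DTX3L and PARP14 encode an ADP-ribosyltransferase-like protein, its ubiquitin ligase partner and a further ADP-ribosyltransferase. PARP9 read 5.59 in syk-wt and 6.95 in mock, 2.56-fold lower, but its second probe set read 5.21 in syk-wt and 5.42 in mock. The PARP9 call rests on 1 of its 2 probe sets. DTX3L read 8.03 in syk-wt and 8.79 in mock, and PARP14 read 6.45 in syk-wt and 7.20 in mock, 1.68-fold and 1.67-fold lower.

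PML, the scaffold of nuclear bodies, read 6.16 in syk-wt and 6.48 in mock by its brightest probe set, and its 10 probe sets ran from -0.32 to 0.19. SP100, another nuclear body protein, read 7.43 in syk-wt and 7.98 in mock, and 5 of its 6 probe sets were below 0. Neither gene reached 2-fold.

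LGALS3BP, a secreted galectin-binding glycoprotein, read 7.66 in syk-wt and 9.18 in mock, 2.87-fold lower. IFI35 read 7.45 in syk-wt and 8.32 in mock, 1.82-fold lower. IFI6, a mitochondrial and endoplasmic reticulum protein, read 5.50 in syk-wt and 6.34 in mock, 1.79-fold lower. IFI27 was counted but dim on both arrays (3.99 in syk-wt and 4.66 in mock).

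The other 12 measured members, IFI16, OAS2, HERC6, RSAD2, CMPK2, TRIM22, SAMD9L, IFI44, IFI44L, XAF1, EPSTI1 and GBP1, stayed under the brightness filter. Every one of them was dim on both arrays by its brightest probe set, with 4.76 as their highest value, so no fold is given. CMPK2, a mitochondrial nucleotide kinase, had the widest measured gap among them (3.11 in syk-wt and 4.76 in mock). Just inside the 2-fold threshold among counted members were IRF9 (-1.01), ISG15 (-1.12) and PARP9 (-1.36), and just outside were SAMD9 (-0.88), IFI35 (-0.87) and HERC5 (-0.86).

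**Figure D3:**
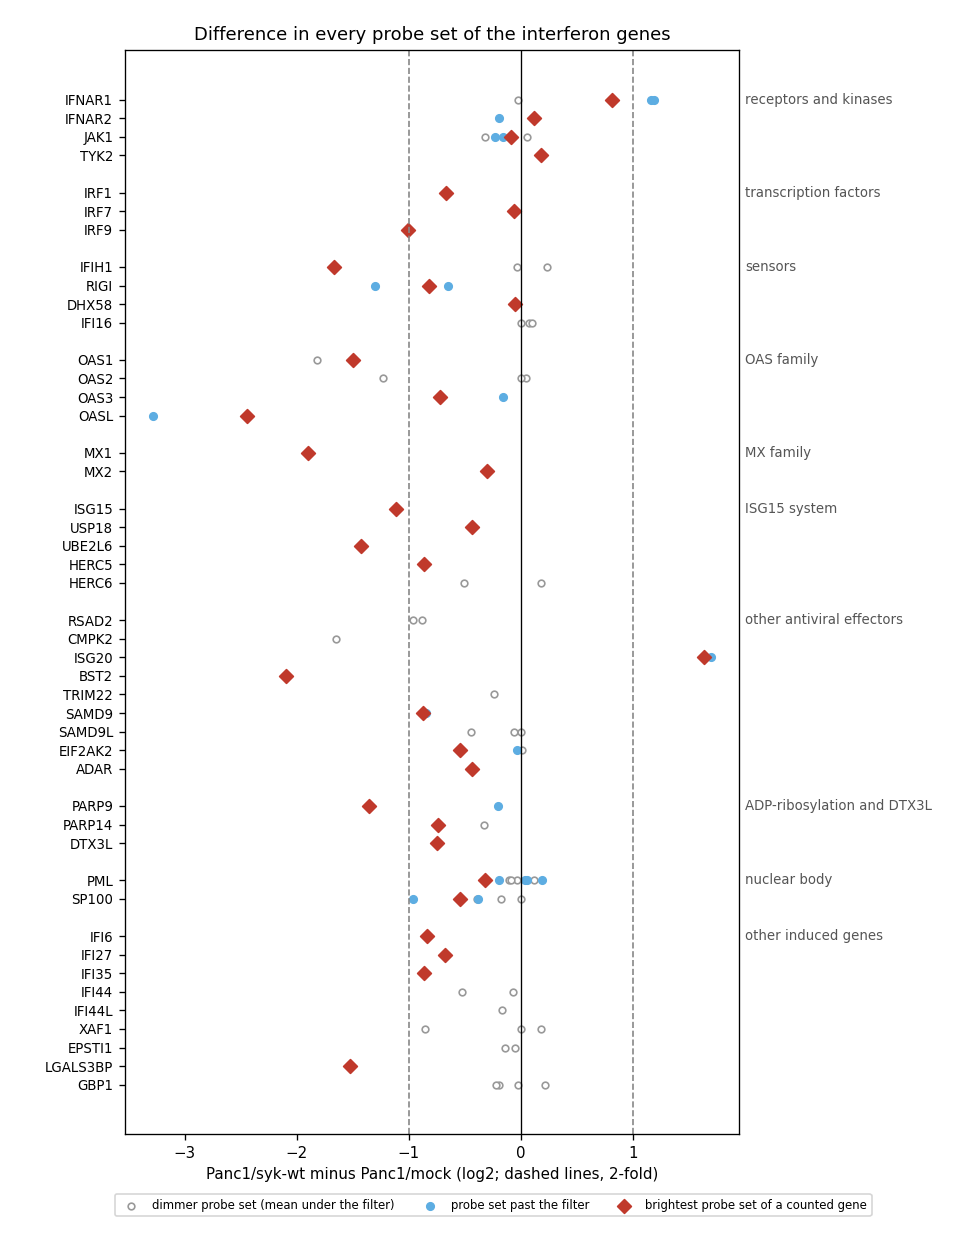
Difference syk-wt minus mock (log2) for each of the 97 member probe sets, by gene and role. Red diamonds mark the brightest probe set of a counted gene, blue points its other probe sets past the filter, and open points probe sets below the filter. Of the 55 probe sets past the filter 44 lie left of 0, and those at least 2-fold higher belong to IFNAR1 and ISG20. The 55 come from 33 genes, and the share left of 0 over all probe sets past the filter was not computed.

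Neighbouring members could be set side by side through RefSeq gene order (GRCh38.p14). Several neighbours share a family name, such as OAS1 and OAS3 or MX1 and MX2, so gene order is not independent of the choice by name. By that order 18 members formed 10 pairs with at most 2 protein-coding genes between them. On chromosome 3, PARP9 and DTX3L are direct neighbours and PARP14 follows with 1 gene between, and the differences were -1.36, -0.75 and -0.74. On chromosome 12, the adjacent OAS1 and OAS3 differed by -1.50 and -0.72. On chromosome 21, the adjacent MX1 and MX2 differed by -1.90 and -0.31, whereas IFNAR1 and IFNAR2 on the same chromosome differed by 0.81 and 0.12. In these pairs, in which both members were counted, neighbours shared a sign but not always a size. Since 29 of the 33 counted members lay below 0, most pairs of members share a sign whether or not they are neighbours. Pairs that are not neighbours were not compared, so the shared sign cannot be tied to gene order. For IFNAR1 and IFNAR2 the shared sign depends on the probe set, since IFNAR2 differed by -0.20 with the median of its probe sets or with _at probe sets alone.

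RefSeq promoter windows, 250 bases before to 50 after a gene start, were at hand for 37 of the 46 members (54 windows, as some genes have several starts). The ISRE core repeat (GAAA, NN, GAAA) on either strand occurred in 20 of the 37 members (54.1%) and in 4.38% of all 27305 genes with a window. All 20 were effectors, out of 31 effectors with a window, and 0 of 6 receptor and JAK-STAT members held it. Those 6 were IFNAR1, JAK1, TYK2, STAT2, IRF1 and IRF9, and with so few genes 0 cannot be told from the 4.38% of all genes. Among members at least 2-fold lower in syk-wt, 6 of 9 held it, namely BST2, IFIH1, ISG15, LGALS3BP, MX1 and PARP9. Among counted members under 2-fold, 8 of 16 held it, and so did ISG20, the member that was higher. Members with the repeat were thus found among lower, higher and uncalled genes.

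Of the 35 matches, counted once per window, 27 began within 150 bases before the gene start, and the 35 stand for 31 distinct sites. The windows reach only 250 bases before the start. Positions in the windows of other genes were not compared, so a place close to the start is not shown to be particular to members. The windows of PARP9 and DTX3L, which are read in opposite directions, overlapped by 137 bases and shared a single match at chr3:122564332-122564341, the capitals in the PARP9 stretch above. TTCNNNGAA occurred in 9 of 37 members (24.3%) and in 9.38% of all genes. It was in 7 of 31 effectors and in 2 of 6 receptor and JAK-STAT members, so it was not particular to the transcription factor genes. A match describes letters in a window and does not show that a factor binds there.

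**Figure D4:**
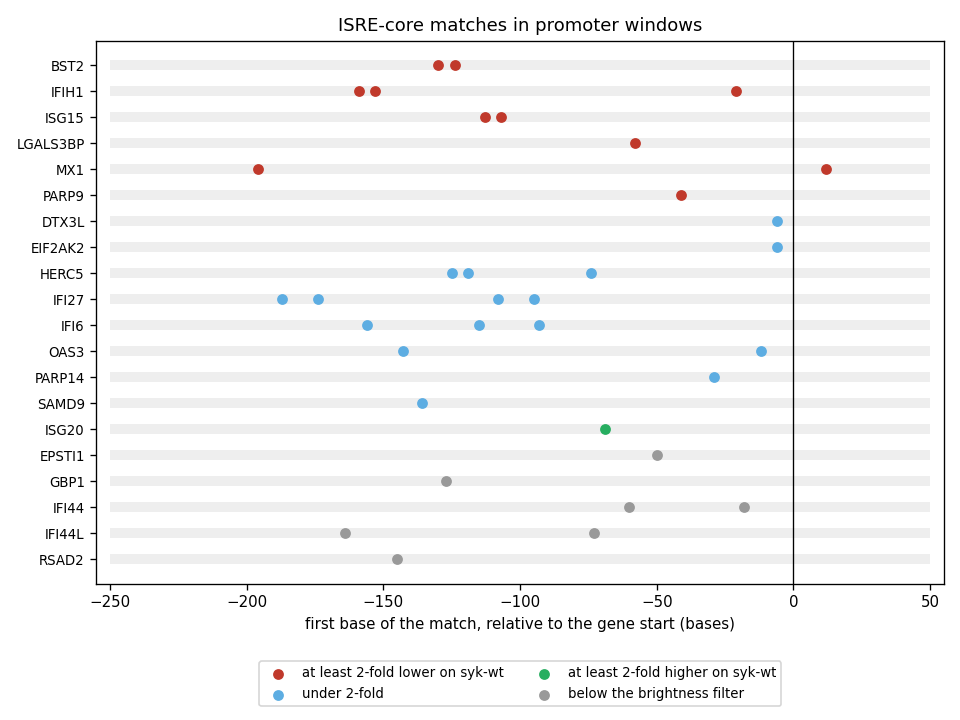
First base of each ISRE core match, in bases from the gene start, in the promoter windows (grey bars) of the 20 members that hold one. Colours give the array result of the gene: 6 at least 2-fold lower in syk-wt, 8 under 2-fold, 1 higher and 5 below the brightness filter. Most matches, 27 of 35, begin within the 150 bases before the start.

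Further genes of the pathway, a list of 36, were read for context, and 32 of them were measured. Of 24 counted, 2 passed 2-fold, both of them lower in syk-wt, and the median difference was -0.19. That share, 8.33%, stands beside 7.26% of all counted genes past 2-fold in either direction and 3.65% at least 2-fold lower, and rests on 2 genes. Below 0 lay 19 of the 24 (79.2%), against 47.8% of all counted genes. STAT3, which answers interleukin-6 family cytokines and also interferon, read 10.15 in syk-wt and 11.37 in mock, 2.33-fold lower, with all 4 of its probe sets below 0. DDX60, an interferon-induced helicase, read 5.30 in syk-wt and 6.45 in mock, 2.22-fold lower. The receptors for interferon-gamma differed little, with IFNGR1 at 8.17 in syk-wt and 8.13 in mock and IFNGR2 at 9.23 in syk-wt and 9.26 in mock.

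The feedback inhibitor SOCS3 read 8.33 in syk-wt and 8.81 in mock, and SOCS1 was dim on both arrays, as was the kinase JAK2. IFNB1, the gene for interferon-beta, was dim as well (3.82 in syk-wt and 3.34 in mock), and so were the other 4 measured interferon genes. Whether any interferon was present in either culture was not measured here.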

How the data were processed

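The authors deposited log2 values of 54675 probe sets on each array. Per the submitters' processing notes the values come from RMA (background correction, quantile normalisation and probe set summary), with version and settings not given in the sources used here. That they are log2 was taken from their range, 2.14 to 14.6. RMA compresses differences between dim probe sets.

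Gene names came from the platform annotation: 41097 probe sets had 1 symbol, 1801 several and 11777 none here. RIGI was matched by its older symbol. From these values syk-wt minus mock, counts past 2-fold and medians were computed with Python 3.11.15 and pandas 2.3.3. The gene differences and the 2-fold count were tested on simulated data, and the other steps were not. The number of arrays limits the precision. Alternatives were median centring, loess (span 0.2), mean or median of a gene's probe sets, _at probe sets alone, no filter, a 75th-percentile filter, a floor at 4.77 on both arrays and, for promoters, a wider motif.

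The members, lists, roles, dim level and tests were chosen with earlier results of these data known. Values are given for every receptor, kinase and transcription factor member, every member past 2-fold, the 3 counted members nearest to 0, and context genes past 2-fold or listed by name; other members named were chosen after their values were seen. Genes not measured were not analysed here.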

Additional observations from a re-analysis of the deposited data

How the results depend on the processing

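The median of all members stayed between -0.75 and -0.66 under the 8 array alternatives, that of the effectors between -0.84 and -0.73 and that of the receptor and JAK-STAT members between -0.20 and -0.05, while the gap between the parts ranged from 0.55 to 0.77. The 11 called members kept their sign in all 78 values that the alternatives gave for them, and 5 of these were under 2-fold: IRF9 with median centring (-0.99), PARP9 with the mean or median of its probe sets (-0.78 in each) or _at probe sets alone (-0.21), and OAS1 with both arrays floored (-0.53). With the 75th-percentile filter, which tests fewer genes, 21 members were counted, 6 passed 2-fold and 5 of these were lower. Of all 8031 counted genes 486 passed (6.05%) and 266 of these were lower, and 1 of 13 context genes passed. Averaging probe sets gave 562 of all 11652 counted genes past 2-fold (4.82%), and _at probe sets alone gave 1 of 18 context genes. A called member that an alternative left uncounted has no value among the 78. This held for IFIH1 and OAS1 with the mean or median of probe sets, where 7 of 31 counted members were at least 2-fold lower. Over all counted genes 278 of 11652 were at least 2-fold lower with the mean and 315 of 11218 with the median. The repeat with 1 base wider spacing was in 4 of 37 members (10.8%) and in 3.54% of all genes. Limits are the single array per population, dim values on both arrays in 13 of 45 measured members and on the syk-wt array alone in 4 (BST2, OAS1, MX2 and SAMD9), and possible cross-hybridisation among paralogs such as the OAS genes, which was not tested. No paired analysis was possible because each population had 1 array.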
